A study of Mus musculus with 4 samples.

Results

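The immediate early genes of the AP-1, EGR and NR4A families were examined in splenic regulatory T cells of mice. These CD4 cells depend on the factor Foxp3 and hold immune responses in check. The members were taken by name: Fos, Fosb and Fosl2, Jun, Junb and Jund, Egr1, Egr2 and Egr3, and Nr4a1. Of these 10 genes, 9 had a transcript cluster of their own on the array, among 30145 genes with one. Junb lay on a cluster that is also listed for Prdx2, so no value is given for it.

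Expression was measured on 4 arrays of splenic cells sorted for green fluorescence. In the 2 arrays labelled KO (replicates 1 and 2), the Foxp3-EGFP-Cre transgene was combined with floxed Bmi1 on a C57BL/6 background, and Bmi1 encodes a subunit of Polycomb repressive complex 1. In the 2 arrays labelled WT (replicates 1 and 3), C57BL/6 mice carried the same transgene without the floxed allele, so Cre and the fluorescent protein were present in both groups. The transgene is driven from Foxp3 control sequences, so deletion was directed at Foxp3-expressing cells. The mice were 7 to 8 weeks old, and each sample held 15000 to 40000 sorted cells. The titles and the treatment field describe cells that were not stimulated, whereas the text of the series mentions a stimulation of 24 h by antibodies to CD3 and CD28. Which of these applies is unclear from the labels, and no array of a second state was analysed here. Separate animals are not stated for the samples, and the p-values thus cover only the variation among these arrays, which may be technical.

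Immediate early genes are transcribed within minutes of a signal from existing transcription factors, without new protein synthesis, and most of their messages are short-lived. In T cells, the antigen receptor induces them through MAP kinases and calcium. Fos proteins bind DNA as dimers with Jun proteins (AP-1), often beside NFAT, while EGR zinc finger factors and the nuclear receptor Nr4a1 are widely used as readouts of receptor signal strength.

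The targeted gene stood against its label. Bmi1 read 9.58 and 9.91 (log2) in the arrays labelled KO, against 8.98 and 8.98 in the arrays labelled WT, a difference of 0.77 (SE 0.16, limma adjusted p 0.298). The sources used here name neither the exons behind this cluster nor the floxed exons, and probes outside the deletion would not check the genotype. All directions below depend on the labels. Treg markers read high: the mean level of the 9 measured genes of that list lay between 13.56 and 13.86 in the arrays labelled KO and between 13.80 and 13.87 in the arrays labelled WT, with Foxp3 itself on a shared cluster. That mean includes the general T cell genes Cd3e, Cd3d and Cd4, so it is no measure of purity. Of the list, 5 genes were above 0 and 4 below, among them Lrrc32 (-1.335) and Nt5e (-0.585, with 11.48 and 9.89 in the arrays labelled KO). Array medians lay between 4.65 and 4.69 in the arrays labelled KO and between 4.67 and 4.72 in the arrays labelled WT.

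None of the 9 measured members passed a limma adjusted p under 0.05 (0 of 9), and 0 had an unadjusted limma p under 0.05, where 0.00663% and 10.1% of all genes did. The differences of the arrays labelled KO minus those labelled WT lay between -0.31 (Fosl2) and 0.29 (Jun) on the log2 scale. They were above 0 for 5 members and below 0 for 4, with a median of 0.01 beside 0.005 over all genes. For 8 of 9 members the 95% interval lay within a 2-fold change either way, as it did for 95.4% of all genes, and the exception was Fosb. In bulk samples, fewer cells expressing a gene and less RNA per cell cannot be told apart.

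**Figure D1:**
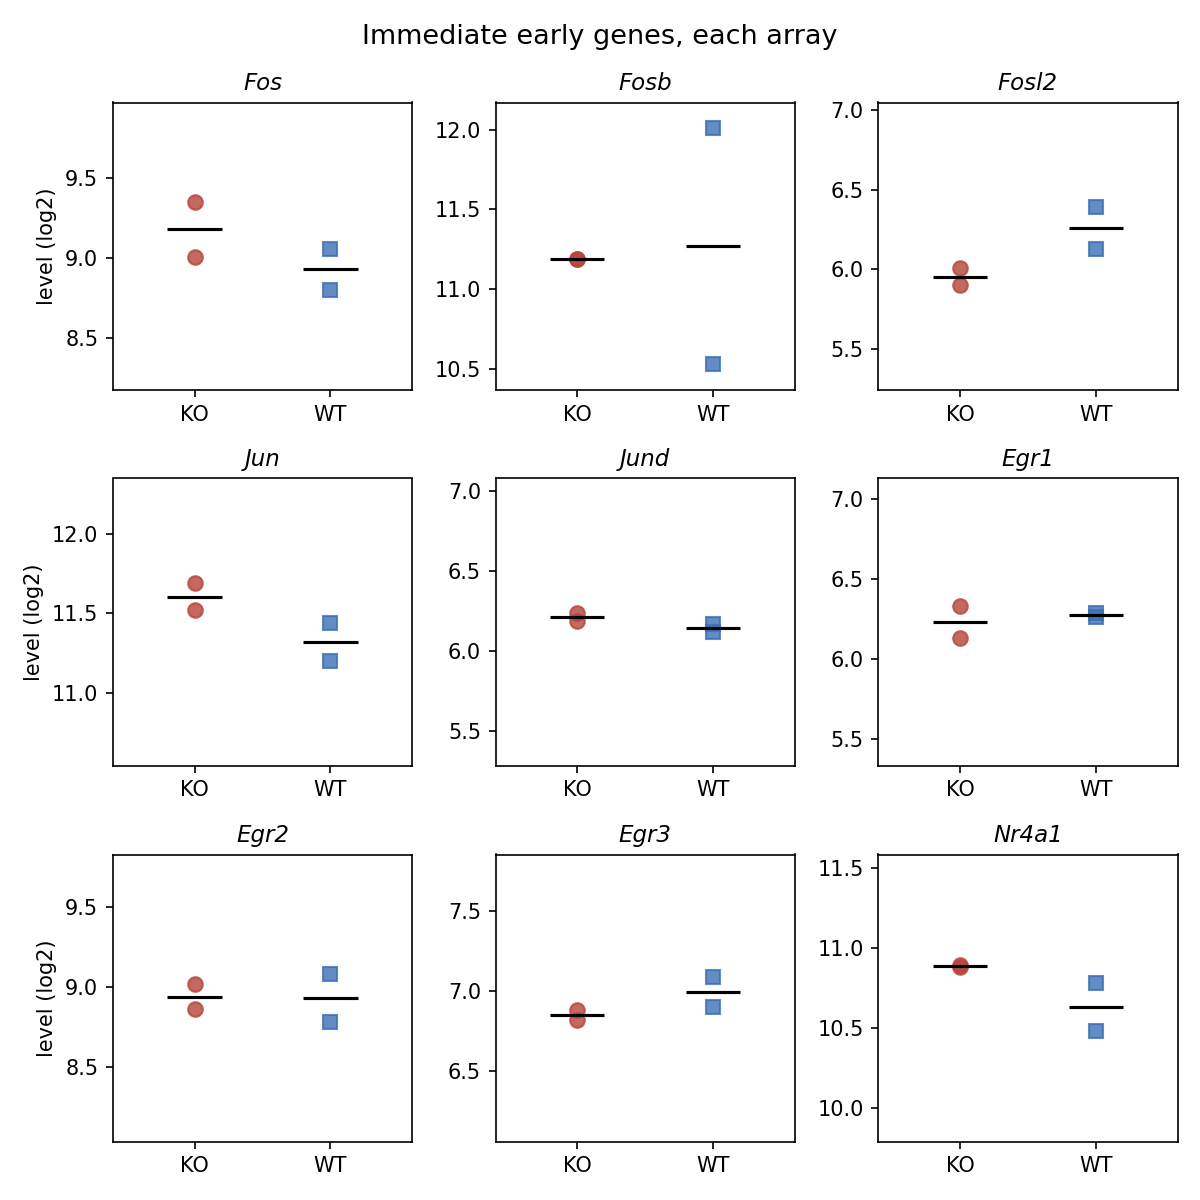
Level of each measured member (log2, vertical axis, the same span in every panel) in the arrays labelled KO (circles) and WT (squares), with bars at the group means. The WT arrays lie 1.48 apart for Fosb, and the groups differ by at most 0.31 between means.

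Fos, the founding partner of Jun in AP-1, read 9.35 and 9.01 in the arrays labelled KO, against 9.06 and 8.80 in the arrays labelled WT. The groups overlapped, since KO replicate 2 lay below WT replicate 1. The mean was 9.18 ± 0.24 in the arrays labelled KO and 8.93 ± 0.18 in the arrays labelled WT (SD, n = 2 each). The difference of 0.25 (SE 0.18) had a 95% interval of 0.864-fold to 1.64-fold (limma adjusted p 0.730). It was 0.08 without KO replicate 1, 0.42 without KO replicate 2, 0.38 without WT replicate 1 and 0.12 without WT replicate 3.

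Fosb, a close relative of Fos that also forms dimers with Jun proteins, read 11.19 in both arrays labelled KO, against 12.01 and 10.53 in the arrays labelled WT. The arrays labelled KO sat between the WT arrays, whose gap of 1.48 was larger than that of 99.8% of all genes. The difference of -0.08 (SE 0.47) had the widest 95% interval of the members, 0.410-fold to 2.19-fold (limma adjusted p 0.972). Its sign rested on 1 array: without WT replicate 1 the difference was 0.66 (limma adjusted p 0.588), and without WT replicate 3 it was -0.82 (limma adjusted p 0.544).

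Fosl2 (Fra-2), a Fos relative that lacks the strong transactivation domain of Fos and is less transient, read 5.90 and 6.01 in the arrays labelled KO, against 6.39 and 6.13 in the arrays labelled WT. Both arrays labelled KO were below both labelled WT. The difference was -0.31 (SE 0.13, 95% interval 0.639-fold to 1.02-fold, limma adjusted p 0.532), the smallest p among the members, and -0.175 without WT replicate 1.

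The promoters of Fos and Fosb are shown because cyclic AMP and calcium signals are known to reach these genes through CREB sites near the start. Sequences are from RefSeq on GRCm38.p6 and run from 250 bases before to 50 bases after the annotated start, 5′ to 3′ along the gene. Capitals mark every match to the CREB core TGACG, to the 7-letter AP-1 site TGANTCA, to the 8-letter variant TGANNTCA and to the CArG box bound by SRF, on either strand.
Fos (chr12:85473640-85473939, plus strand): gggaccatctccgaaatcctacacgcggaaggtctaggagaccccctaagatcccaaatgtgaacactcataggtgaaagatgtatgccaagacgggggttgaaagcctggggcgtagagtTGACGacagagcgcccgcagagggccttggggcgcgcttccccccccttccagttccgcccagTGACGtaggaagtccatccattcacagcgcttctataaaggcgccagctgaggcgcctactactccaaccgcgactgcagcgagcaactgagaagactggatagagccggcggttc
Fosb (chr7:19309996-19310295, minus strand): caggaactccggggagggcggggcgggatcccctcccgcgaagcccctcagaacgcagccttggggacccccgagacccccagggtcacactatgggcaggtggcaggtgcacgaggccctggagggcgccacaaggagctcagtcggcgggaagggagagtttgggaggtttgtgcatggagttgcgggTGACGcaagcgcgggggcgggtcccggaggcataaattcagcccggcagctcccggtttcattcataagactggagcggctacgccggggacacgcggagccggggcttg

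Among the Jun partners, Jun read 11.69 and 11.52 in the arrays labelled KO, against 11.20 and 11.44 in the arrays labelled WT. Both arrays labelled KO were above both labelled WT, with KO replicate 2 and WT replicate 3 only 0.08 apart. The means were 11.61 ± 0.12 in the arrays labelled KO and 11.32 ± 0.17 in the arrays labelled WT (SD, n = 2 each), a difference of 0.29 (SE 0.14, 95% interval 0.947-fold to 1.57-fold, limma adjusted p 0.588). Without WT replicate 1 the difference of Jun was 0.165. Jund, the Jun relative best known for steady expression and restraint of growth, read 6.19 and 6.24 in the arrays labelled KO, against 6.12 and 6.17 in the arrays labelled WT. These groups did not overlap, but the difference was 0.07 (SE 0.10, 95% interval 0.873-fold to 1.26-fold, limma adjusted p 0.888), and 0.045 without KO replicate 2 or without WT replicate 1. The Jun promoter is shown for its 8-letter AP-1 variant, the element through which Jun is known to act on its own gene.
Jun (chr4:95052173-95052472, minus strand): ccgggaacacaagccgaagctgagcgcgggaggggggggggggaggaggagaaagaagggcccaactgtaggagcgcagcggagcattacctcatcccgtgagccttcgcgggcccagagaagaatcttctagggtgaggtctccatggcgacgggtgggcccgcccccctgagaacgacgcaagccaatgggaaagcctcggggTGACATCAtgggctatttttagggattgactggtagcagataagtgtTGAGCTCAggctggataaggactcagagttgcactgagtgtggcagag

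Egr1, Egr2 and Egr3 encode zinc finger factors. Egr2 and Egr3 are known in T cells for restraining activation and promoting anergy. Egr1 read 6.33 and 6.13 in the arrays labelled KO, against 6.26 and 6.29 in the arrays labelled WT. The WT arrays lay between those labelled KO, and the difference was -0.045 (SE 0.12, 95% interval 0.784-fold to 1.20-fold, limma adjusted p 0.947). Its sign turned without KO replicate 2 (0.055), and it was -0.145 without KO replicate 1.

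Egr2 read 9.02 and 8.86 in the arrays labelled KO, against 8.78 and 9.08 in the arrays labelled WT. Here the arrays labelled KO lay between those labelled WT. The difference was 0.01 (SE 0.16, 95% interval 0.757-fold to 1.34-fold, limma adjusted p 0.985). It was -0.07 without KO replicate 1, -0.14 without WT replicate 1, 0.09 without KO replicate 2 and 0.16 without WT replicate 3.

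Egr3 had 3 clusters. The brightest, used in the test, read 6.88 and 6.82 in the arrays labelled KO, against 6.90 and 7.09 in the arrays labelled WT. Both arrays labelled KO were lower, but KO replicate 1 and WT replicate 1 nearly met. The groups overlapped once each array was centred on its median (4.65 for KO replicate 1 and 4.72 for WT replicate 1). The difference was -0.145 (SE 0.13, 95% interval 0.723-fold to 1.13-fold, limma adjusted p 0.784). It was -0.24 without WT replicate 1 and -0.05 without WT replicate 3. A second cluster with no mapped chromosome in its identifier also kept the groups apart, at 6.10 and 6.35 in the arrays labelled KO and 6.40 and 6.72 in the arrays labelled WT. The third overlapped, at 6.31 and 6.16 in the arrays labelled KO and 6.20 and 6.17 in the arrays labelled WT. The clusters of Egr3 therefore disagreed on separation. The Egr2 promoter is shown for its CArG box, the SRF element through which growth factor and MAP kinase signals reach EGR genes. Egr2 had several windows, and the first that held both a CArG box and a CREB core is printed. Another, from base 67535249, held none of the motifs searched.
Egr2 (chr10:67537619-67537918, plus strand): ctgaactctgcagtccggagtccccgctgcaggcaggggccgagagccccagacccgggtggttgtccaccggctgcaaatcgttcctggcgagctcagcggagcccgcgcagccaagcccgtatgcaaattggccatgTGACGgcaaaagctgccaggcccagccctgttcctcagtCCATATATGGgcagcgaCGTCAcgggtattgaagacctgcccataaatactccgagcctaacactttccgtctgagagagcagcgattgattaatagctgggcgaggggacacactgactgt

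Nr4a1 (Nur77), an orphan nuclear receptor whose reporter mice are used to read T cell receptor signalling, read 10.89 and 10.88 in the arrays labelled KO, against 10.48 and 10.78 in the arrays labelled WT. Both arrays labelled KO were above both labelled WT, and WT replicate 1 was the lowest. The means were 10.89 ± 0.01 in the arrays labelled KO and 10.63 ± 0.21 in the arrays labelled WT (SD, n = 2 each). The difference was 0.26 (SE 0.15, 95% interval 0.918-fold to 1.55-fold, limma adjusted p 0.650). It was 0.105 without WT replicate 1 and 0.405 without WT replicate 3. Its promoter is shown because it holds 4 CREB cores.
Nr4a1 (chr15:101266596-101266895, plus strand): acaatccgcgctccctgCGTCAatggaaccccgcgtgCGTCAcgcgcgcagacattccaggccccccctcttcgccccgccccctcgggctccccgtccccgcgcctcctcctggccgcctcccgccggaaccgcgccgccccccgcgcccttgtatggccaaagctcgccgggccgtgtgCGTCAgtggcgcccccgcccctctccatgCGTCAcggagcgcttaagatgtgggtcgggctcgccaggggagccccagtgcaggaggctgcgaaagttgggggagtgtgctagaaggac

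**Figure D2:**
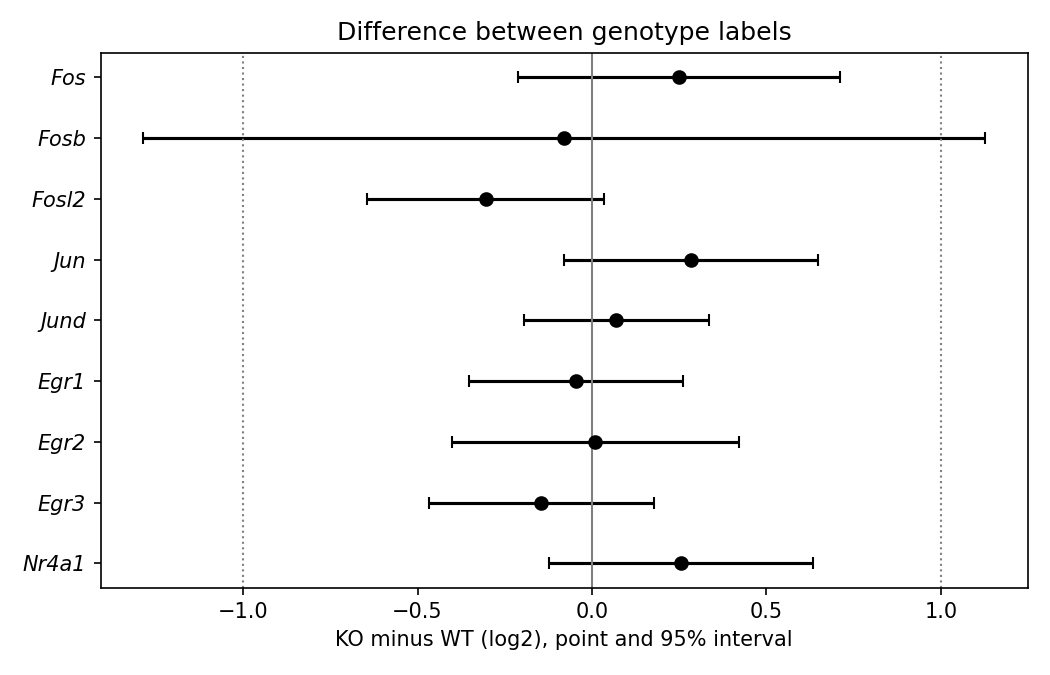
Difference of the arrays labelled KO minus those labelled WT for each measured member (log2, horizontal axis), with 95% intervals from limma and dotted lines at a 2-fold change. All 9 intervals cover 0, and that of Fosb alone reaches past 2-fold, on both sides.

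The groups did not overlap for 5 of the 9 measured members, beside 38.5% of all genes. Jun, Jund and Nr4a1 were higher in both arrays labelled KO (21% of all genes were), and Fosl2 and Egr3 lower (17.5% of all genes were). The count was 4 of 9 when each array was centred on its median or after quantile normalization. It was 8 of 9 without WT replicate 1, when 3 arrays remain and separation is easier. The share over all genes was not taken under these other settings, so these counts cannot be set against it. With 2 arrays a group, the smallest two-sided p of an exact permutation test is 0.33. No array was high or low in all members: KO replicate 1 was the highest in 4 members and the lowest in 1, and WT replicate 1 the highest in 2 and the lowest in 4.

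Promoter windows were read for 8 of the 10 genes. Member windows on chromosome 18, where Egr1 lies, were left out, and Egr3 had none. Egr1 was therefore not searched, although the shares over all windows keep that chromosome. The CREB core TGACG was present in Fos, Fosb, Junb, Egr2 and Nr4a1, and 20.8% of all 32851 windows of this length held it. Egr2 had several windows, so a match in any of them is easier than in 1 window. The 4 cores of the Nr4a1 window were matched or exceeded by 0.231% of all windows. That cut was set by the Nr4a1 count itself, so the share is a description and no test. The core can form part of the 8-letter variant TGANNTCA, which was found in Jun and Jund and in 1 other Egr2 window, and in 14.1% of all windows. In Jun it lay at bases -45 to -38 before the start, and again just past the start. The 7-letter AP-1 site TGANTCA was in 0 member windows and in 7.81% of all. A CArG box was found in Egr2 alone among the 8 members read (1.63% of all windows), 72 to 63 bases before the start in the window shown. Egr1 was not read, and a site more than 250 bases before a start would be missed, in Fos as elsewhere. The EGR motif GCGNGGGCG was found in Fosb, Fosl2 and Nr4a1 (5.55% of all windows), and the NR4A motif AAAGGTCA in 0 member windows (1.51%). A letter match is a description of these windows, and none says whether a factor binds.

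**Figure D3:**
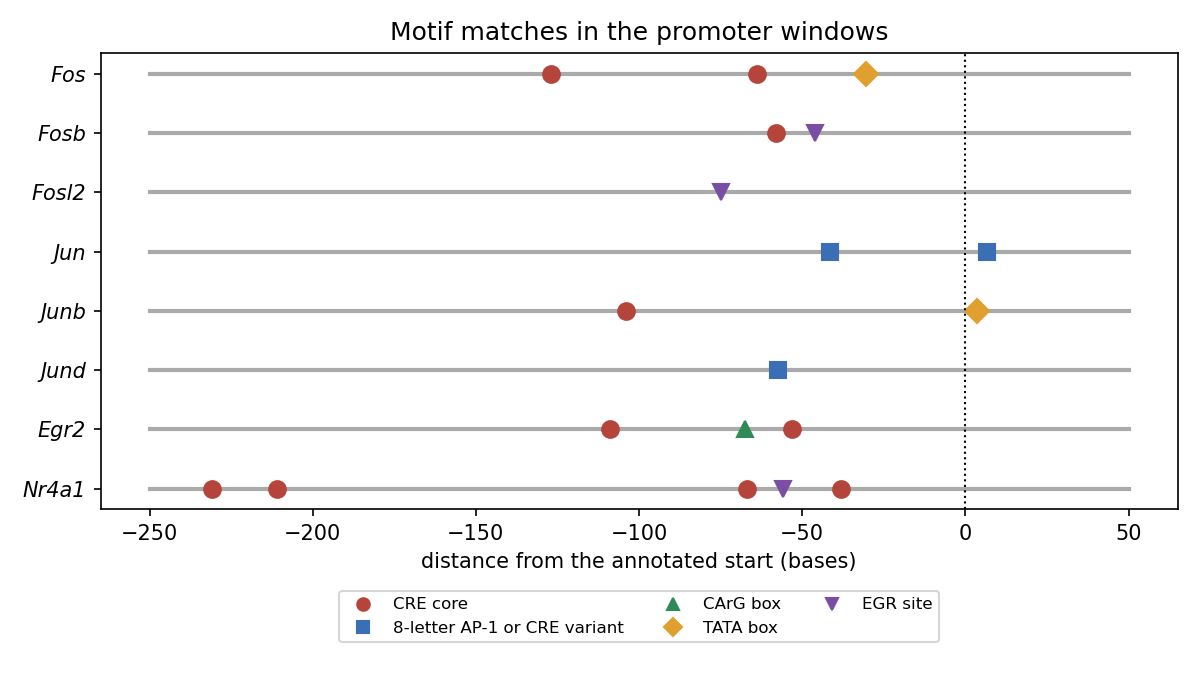
Motif matches (symbols) along the promoter windows of the 8 members read, with distance from the annotated start in bases on the horizontal axis. For Egr2, the window printed above is drawn. The CREB core (drawn as CRE core) nearest to the start begins at base -66 in Fos, -60 in Fosb, -106 in Junb, -55 in Egr2 and -40 in Nr4a1.

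The partners and relatives of these genes were read from the same fit. Of 13 other AP-1 partners, 11 were measured and 0 passed in limma in either direction, with a median difference of -0.015 (5 above 0, 6 below) and 0 at an unadjusted p under 0.05. Batf, an AP-1 factor that pairs with Jun proteins and is needed for effector regulatory T cells, read 11.86 and 11.28 in the arrays labelled KO, against 10.86 and 11.27 in the arrays labelled WT (0.51, SE 0.25, limma adjusted p 0.578). Its groups were separated by 0.01 at their nearest arrays, and it was 0.215 without KO replicate 1, 0.795 without KO replicate 2 and 0.30 without WT replicate 1. Maf, a large Maf factor linked to Il10, read 13.72 and 13.75 in the arrays labelled KO, against 13.29 and 13.59 in the arrays labelled WT (0.30, SE 0.13, limma adjusted p 0.526). Maf was 0.145 without WT replicate 1 and 0.445 without WT replicate 3. Mafk had a difference of -0.26 (-0.42 without WT replicate 1 and -0.10 without WT replicate 3) and Batf3 of 0.11 (0.065 without KO replicate 2). The level of 5 of the 11, Atf3 and Fosl1 among them, lay below the median gene in every array.

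Of the other EGR and NR4A genes and the NAB corepressors of EGR factors, 5 of 5 were measured and 0 passed in limma, with 0 at an unadjusted p under 0.05 and a median difference of 0.005. Nr4a2 read 8.36 and 7.95 in the arrays labelled KO, against 7.89 and 7.48 in the arrays labelled WT (0.47, SE 0.22, limma adjusted p 0.553), and 0.265 without KO replicate 1 or without WT replicate 3. Nr4a3 read 7.42 and 7.27 in the arrays labelled KO, against 7.52 and 7.54 in the arrays labelled WT (-0.185, SE 0.12, limma adjusted p 0.702), and -0.11 without KO replicate 2. The receptors thus stood on different sides of 0, Nr4a1 and Nr4a2 above and Nr4a3 below, and whether they differ from each other was not tested. Egr4 had a difference of 0.145 (0.015 without WT replicate 1 and 0.275 without WT replicate 3) and Nab2 of -0.02, and the sign of Nab2 turned when each array was centred on its median (0.005).

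Among the kinases and factors upstream, 15 of 24 were measured, 0 passed in limma and the median difference was -0.015. At an unadjusted p under 0.05 there was 1, below 0 (3.76% of all genes were). It was Crem, the CREB-like factor whose short form represses cyclic AMP responses, which read 7.61 and 7.63 in the arrays labelled KO, against 7.90 and 8.29 in the arrays labelled WT (-0.475, SE 0.17, limma adjusted p 0.452), and -0.28 without WT replicate 3. Creb1, which binds the CREB core and was picked after its values were seen, read 12.23 and 12.29 in the arrays labelled KO, against 12.18 and 12.15 in the arrays labelled WT (0.095, SE 0.10, limma adjusted p 0.834). Map2k4, a kinase of the JNK branch, had -0.225, Elk1, the SRF partner phosphorylated by MAP kinases, -0.35, and Rasgrp1, the Ras activator of T cells, 0.15. Elk1 was -0.69 without WT replicate 1 and -0.01 without WT replicate 3, and Rasgrp1 0.27 without KO replicate 1 and 0.03 without KO replicate 2. Map2k4 was -0.13 without WT replicate 3. Of 10 NFAT and calcineurin genes and partners, all measured, 8 were below 0, 0 passed in limma (0 at an unadjusted p under 0.05) and the median was -0.10. Nfatc3 had -0.26 (SE 0.11, limma adjusted p 0.526), Ppp3ca, the calcineurin catalytic subunit, -0.23, Ikzf2 -0.155 and Irf4, a target and partner of NFAT and Batf, 0.26. Without WT replicate 1, Ikzf2 was -0.235 and Irf4 -0.01, and without WT replicate 3, Ikzf2 was -0.075 and Irf4 0.52.

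Some other immediate early genes had larger differences than the members, and none passed. All 33 of the list were measured, 0 passed, and 5 had an unadjusted limma p under 0.05 above 0 and 2 below 0 (background 6.36% and 3.76% of all genes). The list median was -0.02 beside 0.005 over all genes, and the groups did not overlap for 10 genes above 0 and 7 below (21% and 17.5% of all genes). Dusp1, a phosphatase that shuts off MAP kinases, read 16.18 and 16.04 in the arrays labelled KO, against 15.77 and 15.58 in the arrays labelled WT (0.44, SE 0.09, limma adjusted p 0.306). Rgs1, which dampens chemokine receptor signals, read 13.58 and 13.20 in the arrays labelled KO, against 12.70 and 12.80 in the arrays labelled WT (0.64, SE 0.15, limma adjusted p 0.345). Both sat apart from the arrays labelled WT by more than the gap within that pair. Rhob, a small GTPase, read 8.53 and 7.90 in the arrays labelled KO, against 10.08 and 9.40 in the arrays labelled WT (-1.525, SE 0.31, limma adjusted p 0.295). Zfp36l1, which destabilises AU-rich messages, read 15.34 and 15.37 in the arrays labelled KO, against 15.71 and 15.71 in the arrays labelled WT (-0.355, SE 0.06, limma adjusted p 0.293). Myc, another gene of the early wave, read 10.84 and 10.76 in the arrays labelled KO, against 10.69 and 10.54 in the arrays labelled WT (0.185, limma adjusted p 0.711), and was picked after its values were seen.

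Of 25 genes that follow T cell receptor signals, 24 were measured, 0 passed in limma and the median difference was 0.02 (14 above 0, 10 below). At an unadjusted p under 0.05 there were 2 above 0 and 1 below (6.36% and 3.76% of all genes). Cd69 was counted here and among the other immediate early genes above, since both lists hold it. Cd69, an early activation antigen that retains cells in tissue, read 14.93 and 14.65 in the arrays labelled KO, against 14.35 and 14.32 in the arrays labelled WT (0.46, SE 0.11, limma adjusted p 0.357). Cd44, an adhesion receptor of antigen-experienced cells, read 8.96 and 8.86 in the arrays labelled KO, against 8.41 and 8.40 in the arrays labelled WT (0.51, SE 0.13, limma adjusted p 0.354). Xcl1, a chemokine, had -0.41 (SE 0.13), or -0.27 without KO replicate 2, and Tfrc, the transferrin receptor, 0.39 (SE 0.19), or 0.64 without KO replicate 1 and 0.14 without KO replicate 2. Il2, the cytokine gene that AP-1 and NFAT drive in conventional T cells and that Foxp3 represses, was picked after its values were seen. It read 4.60 and 4.41 in the arrays labelled KO, against 4.60 and 4.72 in the arrays labelled WT, below the median gene in every array.

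**Figure D4:**
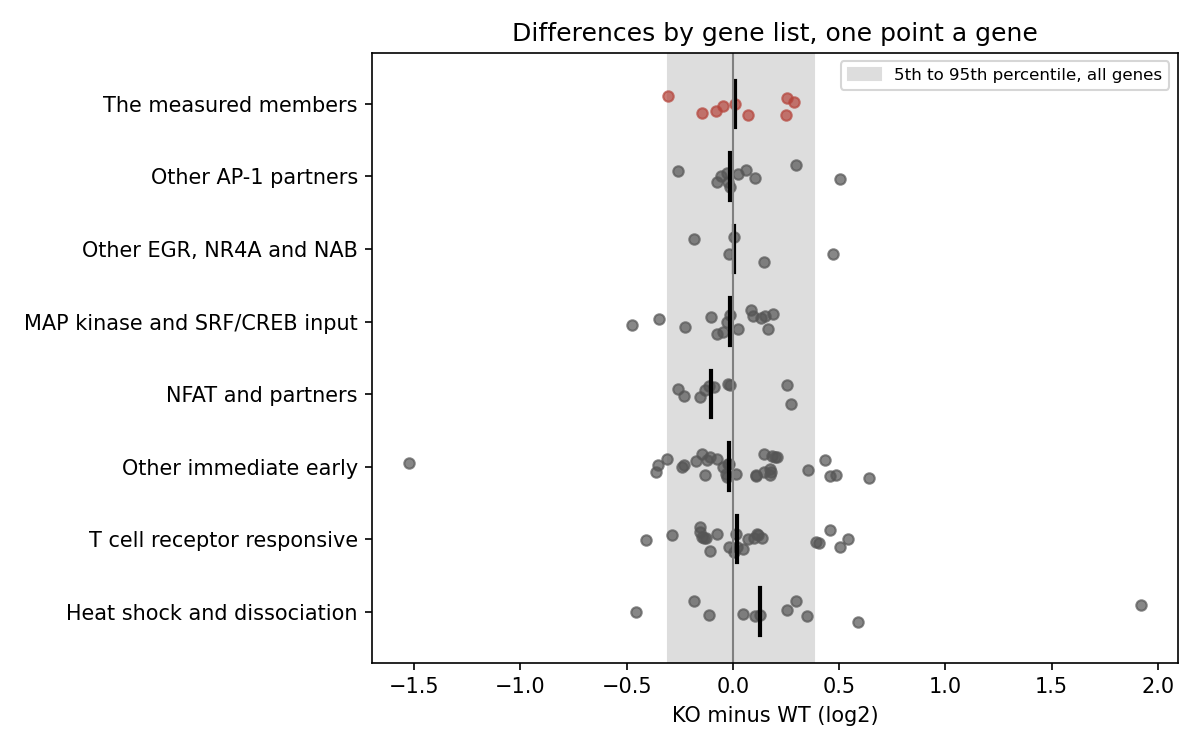
Difference of the arrays labelled KO minus those labelled WT (log2, horizontal axis) for every measured gene of 8 groups, 1 point a gene, with black bars at the group medians and a grey band from the 5th to the 95th percentile of all genes (-0.305 to 0.38). The measured members (top) lie within the band, with Fosl2 on its lower edge, while Rhob and Hspa1a lie far outside it.

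Heat shock genes, which cell dissociation and sorting are known to induce together with Fos and Jun, are given beside the members. Of 14 listed, 11 were measured, 0 passed, and the median difference was 0.125. At an unadjusted limma p under 0.05 there were 4 above 0 and 1 below 0 (6.36% and 3.76% of all genes). Hspa1a, the inducible Hsp70 chaperone, read 7.71 and 7.00 in the arrays labelled KO, against 5.52 and 5.35 in the arrays labelled WT (1.92, SE 0.25, limma adjusted p 0.209). Its near-identical neighbour Hspa1b lay on a cluster listed for both, so the level of Hspa1a is uncertain. Dnajb1, its co-chaperone, read 8.83 and 8.79 in the arrays labelled KO, against 8.20 and 8.24 in the arrays labelled WT (0.59, SE 0.12, limma adjusted p 0.298). Hspa8 had 0.125 (SE 0.03) and Hspb1, a small heat shock protein, -0.455 (SE 0.11). The mean level of the list was 10.08 and 9.88 in the arrays labelled KO, against 9.68 and 9.75 in the arrays labelled WT. Hspa1a, with the largest difference of the list, is part of this mean, which therefore does not show a shift of the whole list. Of the 11 genes, 8 were above 0 and 3 below: Hspb1, Bag3 (-0.185) and Hspa5 (-0.115). The array order of this list, KO replicate 1 highest and WT replicate 1 lowest, was that of Jun and Nr4a1 alone among the measured members. In Fos, KO replicate 1 was also the highest (9.35), but WT replicate 3 was the lowest (8.80). The part of this list in the values of the members was not tested.

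Markers of other cells were read in the same way. The plasma cell list had a mean level of 6.23 and 6.19 in the arrays labelled KO, against 5.71 and 5.77 in the arrays labelled WT, with 6 of 8 genes above 0, led by Ighg2b (1.81) and Jchain (1.03). The other 2, Sdc1 (-0.03) and Pou2af1 (-0.06), were below 0, and 4 of the 8 lay below the median gene in every array. The CD8 T and natural killer cell list had 6.44 and 6.66 in the arrays labelled KO, against 6.08 and 6.41 in the arrays labelled WT, with 6 of 9 above 0, led by Nkg7 (1.16) and Eomes (1.075). Prf1 (-0.185), Klrb1c (-0.125) and Cd8a (-0.10) were below 0, and Klrd1 (0.02), Gzma (0.07) and Ncr1 (0.13) lay little above it. The list mean therefore does not show a shift of the whole list. Eomes was 0.515 without KO replicate 2 and 1.635 without KO replicate 1. Of that list, Cd8b1, picked after its values were seen, read 10.71 and 11.26 in the arrays labelled KO, against 9.74 and 10.78 in the arrays labelled WT (0.725), while Cd8a and Ncr1 lay below the median gene in every array. The same held for 7 of 9 B cell genes and 9 of 11 myeloid genes. B cell genes (Ms4a1 -0.145, Cd79b -0.19), myeloid genes (Clec7a -0.275, Lyz2 -0.25) and the 3 measured erythroid and platelet genes (Pf4 0.095, Alas2 -0.06) had list medians of -0.025, -0.11 and 0. Leaving out 1 array in turn gave ranges of -0.21 to -0.08 for Ms4a1, -0.38 to 0 for Cd79b, 0 to 0.19 for Pf4 and -0.11 to -0.01 for Alas2. Cd3e (0.57) and Lrrc32 (-1.335) led the regulatory T cell list by p. The part of these lists in the values of the members was not tested.

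The protein-coding genes closest to a member in their array pattern were found by the root mean square distance of centred log2 values over the 4 arrays. For Fos they were Memo1 (0.019), Ahr, the ligand-activated aryl hydrocarbon receptor (0.023), and Srp68, a signal recognition particle subunit (0.027). For Nr4a1 they were Bdh1, an enzyme of ketone bodies (0.007), Ric1 (0.012) and Pacrgl (0.018). For Egr1 they were 4930404N11Rik (0.007), Trp53rkb (0.008) and Prl3a1 (0.008). With 4 arrays many genes lie this close, and Egr1 itself varied little (SD 0.09 over the arrays).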

How the data were processed

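The authors' deposited file holds log2 expression values of 65528 transcript clusters on 4 arrays. They came from Transcriptome Analysis Console and RMA, a robust multi-array average, per the submitters' processing notes, which give no version or order. Base 2 of the logarithm is inferred from RMA. For the array, the background handling, genome build and annotation release are not given here, and no slide or scan date was used.

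Clusters were named through the platform annotation, with symbols updated by RefSeq (GRCm38.p6). Of the clusters, 30675 had 1 symbol, 1842 had several and were not named, and 33011 were not listed there. For 420 genes with several clusters the brightest was kept, which left 30145 genes.

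Differences (arrays labelled KO minus WT) were fitted on all genes with limma 3.58.1 in R 4.3.3 (lmFit, eBayes with an intensity trend, two-sided, Benjamini-Hochberg adjustment over all genes, threshold 0.05). Precision is limited by the number of arrays. The procedure was tested on simulated data whose spread was drawn from the prior of the same fit, so the test could not check that model. At a log2 change of 1, 59.7% of the changed genes were called, and 14 unchanged genes were called. The simulation changed 200 genes, whereas 2 genes passed in these data. The adjustment is stricter when fewer genes change, so the 59.7% may overstate the power here. Of each gene list, up to 4 genes with the smallest p were named (2 for marker lists), and any other gene is marked as picked later or illustrates a count. Members and lists were chosen with earlier results of these data known. Alternatives were other scalings, a filter on dim genes, other treatments of clusters, other eBayes settings and leaving out each array.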

Additional observations from a re-analysis of the deposited data

How the results depend on the processing

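Under all 11 alternatives, 0 of the 9 members passed a limma adjusted p under 0.05, and the lowest was 0.412. Scalings, filters, cluster rules and eBayes settings turned the sign of no member's difference. Leaving out each array in turn gave ranges that crossed 0 for Fosb (-0.82 to 0.66), Egr1 (-0.145 to 0.055) and Egr2 (-0.14 to 0.16), and for Nab2 (-0.165 to 0.125) and Irf4 (-0.01 to 0.52). It put the median of the members between -0.07 and 0.095 and the number without overlap between 6 and 8, since fewer arrays separate more easily. That number was 4 with centred arrays and after quantile normalization, and 5 under the other settings on all arrays. The share over all genes was taken for the reported setting alone (38.5%). Nab2 also turned to 0.005 with centred arrays, 0.02 after quantile normalization and 0.045 with the mean of its clusters, and the cause was not tested. Among the genes of the other lists, 0 passed as reported and 1, Ighg2b (1.81, limma adjusted p 0.0432), when only the 15074 brighter genes were tested. No paired analysis was possible because the groups share only replicate number 1. The table has no background measure, so differences of dim genes such as Il2 may be understated.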
